A study of Mus musculus with 16 samples.

Results

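Hippocampal RNA of 12 of the 16 mice of this learned helplessness study was compared here by what both shocked groups had in common: the 8 mice given 180 inescapable foot shocks against the 4 control mice given none. The shocked mice were the 4 learned helpless (LH) and the 4 non-learned helpless (NLH) animals, which received the same shocks of 0.4 mA and were told apart afterwards by their escape failures and escape latency, so that each is an outcome-selected share of 1 shocked population. The control (Ctrl) mice stayed in the shuttle box without shocks during that session, and on the following day all 12 mice went through 30 escapable shock trials, so a difference from Ctrl stands on top of a test that Ctrl mice also took. All were male wild type C57BL/6 mice of 3 months, with both hippocampi of a mouse in 1 library of total RNA. The 4 homecage (HC) mice had neither session and, by the study's methods, no handling, so they differ from Ctrl in more than the sessions. They are quoted beside results and enter the limma fit, where they add to the estimate of the spread. Groups were set by treatment and behavior, with no allele or transgene involved.

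Inescapable shock is a strong stressor that activates the hypothalamic-pituitary-adrenal axis, and the hippocampus carries dense receptors for the resulting glucocorticoids. Stress and learning in this tissue are known for brief bursts of immediate early genes, later changes in synaptic and chaperone genes, and changes in how primary transcripts are spliced. A gene can give several RNAs that differ in their exons, and some of them keep an intron or carry an early stop and make little or no protein, so the level of 1 transcript can change while the gene's total does not.

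Levels are FPKM, mapped fragments scaled to transcript length and library size, for 80137 transcripts in every mouse. Differences are on the scale of log2(FPKM + 0.1) as the mean of LH and NLH minus Ctrl, which understates the change of low transcripts. A transcript was taken as shared by both shocked groups when the pooled difference had a limma p under 0.05 after adjustment over all transcripts and when LH and NLH each differed from Ctrl with the same sign at an unadjusted p under 0.05. In a whole hippocampus, fewer cells of a type and less RNA per cell cannot be told apart. Of 19 list genes taken as markers of hippocampal neurons, 18 were measured, and each of these was detected. Neurod6 was at 22.7 to 35.0 FPKM in every mouse of the 12.

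Of the 80137 transcripts, 26 were shared by both shocked groups, or 0.0324%, with 19 higher and 7 lower than in Ctrl. Neither the calls nor this split were stable. Without the HC mice in the fit 21 were shared, 8 higher and 13 lower, of which 9 were among the 26. With mice of the same number as a replicate block none was shared by limma. In that fit 5556 transcripts had an unadjusted p under 0.05, where 5% of the 80137 tests is 4007. The lower ones were also the more numerous when any one of the 4 Ctrl mice was left out (3 and 13 without Ctrl 2). The 26 included RNAs of the chaperone and signalling genes Set, Ywhaz and Naca, of the chloride transporter gene Slc12a5, of the G protein gene Gnas and of the transcription factor gene Gtf2i among the higher, and of the mitochondrial enzyme gene Suclg1 among the lower. In 23 of the 26 all 8 shocked mice lay on one side of all 4 Ctrl mice, which restates the choice of the 26 in the same mice and is no further support. Over all transcripts 0.426% had all 8 above and 0.474% all 8 below. Without a correction for the number of tests, p was under 0.05 for 3.24% of transcripts with a higher level and for 3.96% with a lower one. None of the 26 differed between LH and NLH at a limma adjusted p under 0.05 and 4 did at an unadjusted p under 0.05, but the rule that LH and NLH each differ from Ctrl with the same sign favors such transcripts.

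Several of these RNAs hold a splice junction that no other annotated RNA of the same gene in these data has. The junctions below are shown because they tell the shared transcript from those others, although Set-203, Dnal1-201, Suclg1-202 and Naca-201 also have 175, 128, 90 and 60 bases of their own and Suclg1-202 has another such junction. Each is 30 bases of the RNA, 5′ to 3′, from GRCm38 with GENCODE vM21 exons, and the capitals mark the first 15 bases of the downstream exon.
Set-203: ctctcggccctccagAAAAAGAACAGCAAG
Naca-201: ctcaggctgagacagGATCGGGAACAGAGT
Tpt1-204: ttgtctataagacagATGGTCAGTAGAACA
Gnas-206: tgggtttaacggagaTGAGAAGGCCACTAA
Slc12a5-208: ctacatgatttccagACTCTGGTTGGCAAG
Gtf2i-216: agtataacattcaagATGATGACTATTCTC
Dnal1-201: gcaaccgccggaatgAATTTCAAAGAAAGA
Suclg1-202: cgtgaaagtgtgtggTGCAACAGAATGGGA
Of the 23 shared transcripts with an annotated gene, 7 had no base of their own, 10 had no junction of their own, and Arpp21-223 had neither. The values of such transcripts depend on how the authors' software divided reads between overlapping RNAs.

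Set encodes a histone chaperone that is also an inhibitor of protein phosphatase 2A. Set-203 (chr2:30062601-30071118, plus strand, annotated as a processed transcript without a coding sequence) stood at 7.31, 6.33, 7.17 and 6.56 FPKM in Ctrl 1 to 4. It was at 15.8, 15.5, 15.3 and 10.6 in NLH 1 to 4 and at 15.6, 14.4, 22.0 and 12.8 in LH 1 to 4. Every shocked mouse exceeded every Ctrl mouse, and the HC mice, at 5.27 to 7.07, lay with Ctrl. The pooled difference was 1.12 ± 0.14 (SE) on the log2 scale, with a limma adjusted p of 0.0300.

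Ywhaz encodes 14-3-3 zeta, an adaptor that binds phosphorylated proteins. Ywhaz-204 was at 31.0, 35.2, 42.3 and 30.0 FPKM in the Ctrl mice, at 76.5, 90.3, 87.2 and 63.3 in NLH and at 76.2, 61.4, 72.8 and 51.7 in LH. The groups did not overlap, and 2 of the 4 HC mice lay above all Ctrl mice. The difference was 1.05 ± 0.14 (limma adjusted p = 0.0300). Ywhaz-204 has the same coding sequence of 735 bases as Ywhaz-201, the most abundant other RNA of the gene, and differs in its untranslated ends. It made up 63.7% ± 7.12 (SD, n = 4) of the gene's FPKM in Ctrl and 83.6% ± 5.29 (SD, n = 8) in shocked mice.

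Naca encodes the alpha subunit of the nascent polypeptide-associated complex, which meets new proteins as they leave the ribosome, and Tpt1 a growth-linked protein whose mRNA is under translational control. Naca-201 (chr10:128035575-128048633, plus strand) held 17.1, 17.4, 17.0 and 18.4 FPKM in Ctrl, 25.4, 28.6, 26.6 and 22.6 in NLH and 29.3, 24.9, 26.1 and 23.4 in LH. The Ctrl mice lay close together and all shocked mice lay above them. The difference was 0.56 ± 0.08 (limma adjusted p = 0.0300), and the LH minus NLH difference was 0.01 with a 95% interval from -0.18 to 0.20. Tpt1-204, a processed transcript, was at 67.2 to 74.2 FPKM in Ctrl and at 91.5 to 122 in the 8 shocked mice, a difference of 0.58 ± 0.09 (limma adjusted p = 0.0369). HC stood at 61.6 to 75.3 for Tpt1-204 and at 16.6 to 18.5 for Naca-201, below every shocked mouse.

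Slc12a5 encodes the neuronal potassium chloride cotransporter KCC2, which keeps chloride low enough for GABA to inhibit. Slc12a5-208 was at 6.66, 3.99, 6.00 and 5.06 FPKM in Ctrl, at 11.5, 11.3, 8.31 and 8.45 in NLH and at 12.1, 13.6, 13.3 and 11.4 in LH. All shocked mice exceeded all Ctrl mice, by 1.04 ± 0.15 overall (limma adjusted p = 0.0300), and LH exceeded NLH by 0.36 with a 95% interval from 0.00 to 0.72. Its coding sequence has 693 bases, against 3399 in Slc12a5-207, the most abundant other transcript. That full-length RNA stood at a mean of 14.5 FPKM in Ctrl and 14.7 in shocked mice.

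Gnas encodes the stimulatory G protein alpha subunit that couples receptors to cyclic AMP, in a long and a short form. Gnas-206, with a coding sequence of 1137 bases, was at 24.7, 26.8, 26.8 and 23.5 FPKM in Ctrl, at 65.1, 47.9, 46.8 and 32.2 in NLH and at 79.2, 47.4, 60.2 and 55.8 in LH. The groups were fully apart, with a difference of 1.05 ± 0.16 (limma adjusted p = 0.0369). Gnas-208, with 1182 coding bases, was at 93.8 FPKM on average in Ctrl and 88.4 in shocked mice. The share of Gnas-206 in the gene was 18.2% ± 0.759 (SD, n = 4) in Ctrl and 33.9% ± 10.2 (SD, n = 8) in shocked mice.

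Gtf2i encodes TFII-I, a signal-regulated transcription factor. Gtf2i-216 was at 2.17, 2.64, 4.32 and 3.34 FPKM in Ctrl, at 8.66, 7.60, 6.67 and 5.01 in NLH and at 9.72, 7.66, 8.51 and 10.6 in LH. The lowest shocked mouse lay above the highest Ctrl mouse, and 3 of the 4 HC mice, at 3.43 to 6.99, also lay above all Ctrl mice. The difference was 1.35 ± 0.20 (limma adjusted p = 0.0369).

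**Figure D1:**
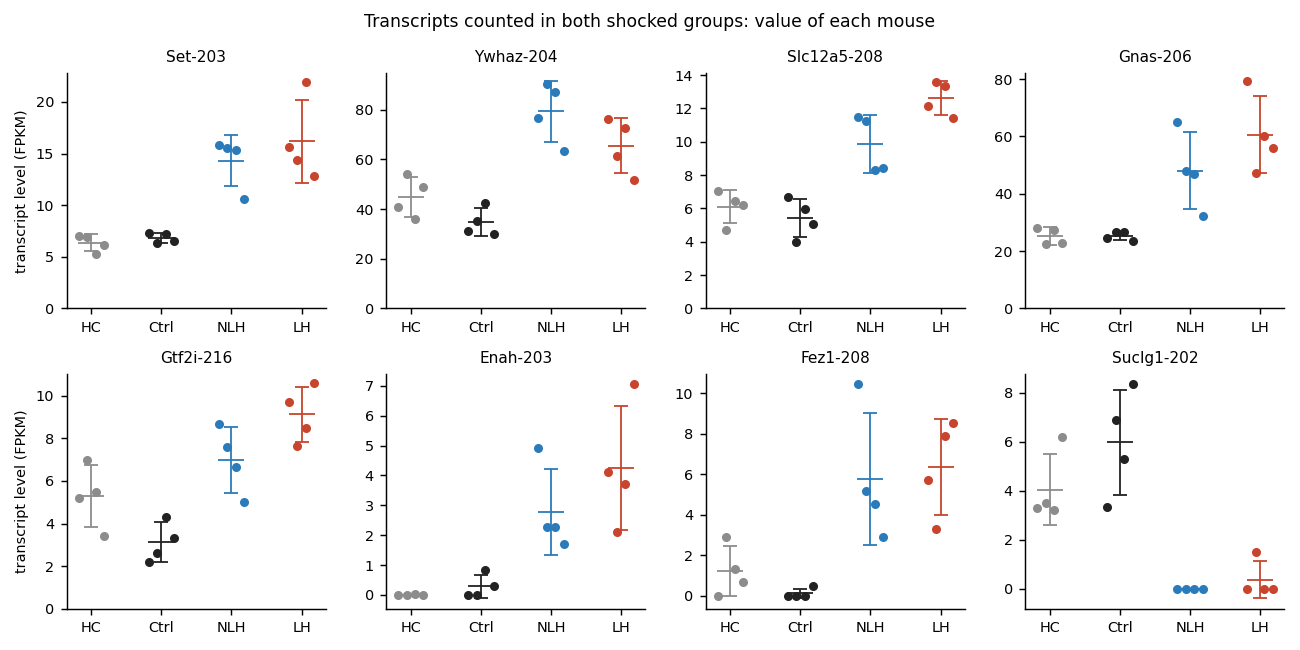
FPKM of 8 of the 26 shared transcripts in each mouse (1 point per mouse) of the HC, Ctrl, NLH and LH groups, with the group mean as a horizontal line and 1 SD as the bar. Each panel has its own FPKM axis, and in each the 8 shocked mice lie on one side of the 4 Ctrl mice, below them for Suclg1-202 and above them for the other 7.

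Some RNAs were under 1 FPKM in every Ctrl mouse and higher in every shocked mouse. Fez1 encodes an adaptor for kinesin transport in axons: Fez1-208 was below 0.003 FPKM in 3 Ctrl mice and at 0.462 in the other, and was at 10.4, 5.17, 4.54 and 2.89 in NLH and at 5.72, 3.31, 7.86 and 8.53 in LH. It had only 3 bases and no junction of its own, and HC stood at 0.00282 to 2.91, with 3 of the 4 HC mice above all Ctrl mice. Enah encodes Mena, which lengthens actin filaments at growth cones and synapses: Enah-203 was at 0.00448, 0.00804, 0.835 and 0.290 FPKM in Ctrl, at 4.92, 2.26, 2.26 and 1.70 in NLH and at 4.13, 2.09, 3.72 and 7.05 in LH, with HC at or below 0.0139. The difference was 5.19 ± 0.73 for Fez1-208 and 3.69 ± 0.52 for Enah-203 (limma adjusted p = 0.0300 for both). Over the alternative limma fits it ran from 2.59 to 7.63 for Fez1-208 and from 1.765 to 5.13 for Enah-203.

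Paics encodes an enzyme of purine synthesis and Dnal1 an axonemal dynein light chain. Paics-202 was at 0.675 FPKM in Ctrl 1 and at or below 0.00232 in the other Ctrl mice, and between 0.813 and 4.45 in the shocked mice. Dnal1-201 was at 1.05, 1.46, 1.66 and 2.56 FPKM in Ctrl, at 8.71, 5.13, 8.30 and 2.27 in NLH and at 7.38, 6.59, 10.5 and 7.70 in LH. One shocked mouse, NLH 4, lay inside the Ctrl range for Dnal1-201. The differences were 3.79 ± 0.57 and 1.96 ± 0.30 (limma adjusted p = 0.0369 for both). All 4 HC mice also lay above all Ctrl mice for both RNAs, at 1.52 to 3.71 for Paics-202 and 3.64 to 4.29 for Dnal1-201, so for these the Ctrl mice stood apart from HC as well as from the shocked mice.

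Asah1 encodes lysosomal acid ceramidase. Asah1-203, a retained-intron RNA, was at 1.51, 1.62, 1.201 and 2.01 FPKM in Ctrl, at 2.93, 2.90, 1.97 and 2.17 in NLH and at 3.79, 4.21, 3.76 and 3.87 in LH. The difference was 0.95 ± 0.14 (limma adjusted p = 0.0369). NLH 3 lay within the Ctrl range and the LH mice formed the top 4, with LH above NLH by 0.65 (95% interval 0.30 to 1.00, unadjusted), and all 4 HC mice, at 2.25 to 2.84, lay above Ctrl.

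Suclg1 encodes the alpha subunit of succinate-CoA ligase, an enzyme of the citric acid cycle. Suclg1-202 (chr6:73248652-73264273, plus strand), annotated as a target of nonsense-mediated decay, was at 3.36, 6.91, 5.29 and 8.35 FPKM in Ctrl and at 3.20 to 6.20 in HC. It was at or below 0.00563 in all NLH mice and 3 LH mice, and at 1.51 in LH 2. The difference was a fall by 5.33 ± 0.60 on the log2 scale (limma adjusted p = 0.0224), the smallest p of all transcripts. It was the one transcript with an adjusted p under 0.05 in LH against Ctrl (0.0321) and in NLH against Ctrl (0.0146) alike. Over the alternative limma fits its pooled difference ran from -8.10 to -2.58.

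The other 6 lower transcripts were chosen for naming after their values were seen, because they are so few. All had means under 1 FPKM. Eif4g2-202, an RNA of a translation initiation factor gene, was at 0.661, 0.824, 1.02 and 1.14 FPKM in Ctrl, at 0.255 and 0.393 in LH 1 and LH 2 and below 0.0001 in the other shocked mice. Psmd2-205, of a proteasome subunit gene, was at 0.525 to 0.902 in Ctrl and at 0.187 in 1 shocked mouse. Ino80-203, of a chromatin remodelling ATPase gene, was at 0.221 to 0.708 in Ctrl and listed at 0 in all 8 shocked mice. Panx1-203, of a membrane channel gene, Pafah1b3-203, of a platelet-activating factor hydrolase gene, and Arpp21-223, of a cyclic AMP-regulated RNA-binding protein gene, ranged from 0.120 to 0.527 FPKM in Ctrl and reached no more than 0.0543 in any shocked mouse. HC sided with Ctrl for Panx1-203 and Eif4g2-202, while all 4 HC mice lay below all Ctrl mice for Psmd2-205, Pafah1b3-203 and Arpp21-223, and 3 of 4 were listed at 0 for Ino80-203. Of the 7 lower transcripts, 4 are retained-intron RNAs, beside 21.5% of all transcripts matched in GENCODE. At an unadjusted p under 0.05, 5.95% of all retained-intron RNAs were lower, beside 3.96% of all transcripts.

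Of the other 7 higher transcripts, 6 are described here, also named after their values were seen. Paip1-202, of a partner of the poly(A)-binding protein in translation, stood at 9.35 to 11.9 FPKM in Ctrl and 13.3 to 19.9 in shocked mice, and Ppp3cb-202, of a catalytic subunit of calcineurin, at 4.56 to 5.45 and 6.64 to 7.98. Rabep1-206, of an early endosome protein gene, stood at 0.380 or less in Ctrl and at 0.792 to 2.73 in shocked mice, and Dnajc12-202, of a cochaperone gene, at 0.179 or less and at 0.304 to 2.48. All 4 HC mice, at 0.412 to 1.16, also lay above all Ctrl mice for Dnajc12-202, as did 3 of 4 for Paip1-202 and for Ppp3cb-202 and none for Rabep1-206. The remaining 2 were assembled by the authors and carry no gene name. MSTRG.35277.1 shared a locus with Malat1, an abundant nuclear long non-coding RNA, and stood at 1.61 to 2.09 FPKM in Ctrl and 2.97 to 4.81 in shocked mice, or 0.0752% and 0.154% of that locus. MSTRG.27375.1 shared a locus with 2900011O08Rik, stood at 12.2 to 17.8 FPKM in Ctrl and 17.7 to 31.6 in shocked mice, and was higher in LH than in NLH at an unadjusted p under 0.05, by 0.42.

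**Figure D2:**
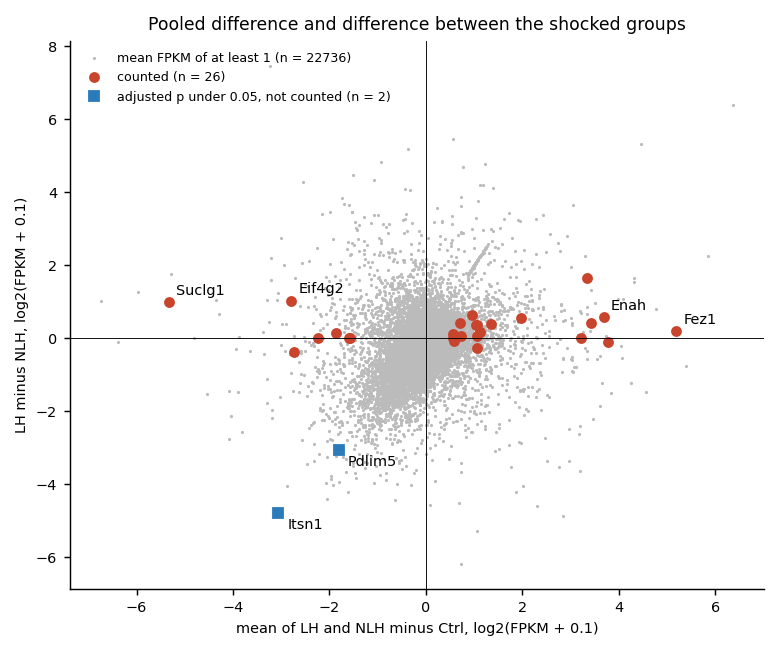
Each point is a transcript, with the mean of LH and NLH minus Ctrl on the x axis and LH minus NLH on the y axis, both in log2(FPKM + 0.1). Grey points are transcripts with a mean of at least 1 FPKM, red points the 26 shared ones, which lie between -0.38 and 1.65 on the y axis, and blue squares the 2 that passed the pooled test but fell in LH alone.

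A pooled p can also be small because 1 shocked group moved alone. This was so for 2 transcripts. Pdlim5-204 was at 0.718 to 1.201 FPKM in Ctrl, at 0.641 to 0.860 in NLH and at or below 0.0175 in LH, and Itsn1-209 was at 1.28 to 8.61, at 1.84 to 5.30 and at 0 or near it. LH was below NLH by 3.07 and 4.80 on the log2 scale, and both were left out of the 26.

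For the 23 shared transcripts with a gene name and another measured RNA of that gene, the rest of the gene was followed separately. By the mean log2 of their summed FPKM, the other RNAs differed in the opposite direction in 14 genes and in the same direction in 9, and for Set, Fez1, Paip1 and Ino80 the difference of the mean FPKM had the other sign. An exact two-sided permutation test over all ways of choosing 4 of the 12 mice, whose smallest possible p is 0.00404, gave p under 0.05 for the rest of the gene in 3: Suclg1 (exact p = 0.0162), Arpp21 (exact p = 0.00404) and Dnal1 (exact p = 0.0242). After adjustment over the 23 the smallest value was 0.0929. In Suclg1 the rest was at 13.8 ± 0.943 FPKM (SD, n = 4) in Ctrl and 17.4 ± 3.01 (SD, n = 8) in shocked mice while Suclg1-202 went from 29.6% to 0.796% of the gene, and the gene total, 19.7 and 17.6 FPKM, did not pass the test (limma adjusted p = 0.825). In Set the share of Set-203 was 33.7% ± 3.14 (SD, n = 4) in Ctrl and 53.5% ± 11.1 (SD, n = 8) in shocked mice, with 13.5 and 13.9 FPKM in the rest. The shares were not tested as evidence, since the transcripts were chosen for the same difference. At the level of the whole gene, 13 of these 23 differed at an unadjusted p under 0.05, beside 6.57% of all gene names that were higher and 2.25% that were lower, and 2, Dnal1 and Naca, at an adjusted one. These counts are partly fixed by the choice, since the shared transcript is part of each total.

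By GENCODE, the 23 comprised 14 protein-coding RNAs, 5 retained-intron RNAs, 3 processed transcripts and 1 decay target, beside 53.1%, 21.5%, 12.7% and 5.88% of all matched transcripts. A count over all transcripts by type was made after the values were seen and is given without a test. Among the 22736 transcripts with a mean of at least 1 FPKM, 7.6% had higher and 3.96% lower levels at an unadjusted p under 0.05. For the 12014 protein-coding RNAs these shares were 10.0% and 1.61%, with a median difference of 0.05, and for the 2022 retained-intron RNAs they were 3.21% and 8.21%, with a median of -0.13. Processed transcripts stood between, with 5.41% and 6.71% of 924. Without the minimum on the mean, the shares were 4.8% and 2.6% of 32299 protein-coding RNAs (median 0.02) and 1.32% and 5.95% of 13112 retained-intron RNAs (median -0.13). Without LH 3 and LH 4, the libraries with the most transcripts listed at 0, and with the minimum, they were 28.7% and 1.28% for protein-coding RNAs (median 0.18), 4.6% and 10.5% for retained-intron RNAs (median -0.08) and 19.3% and 6.55% for all.

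Per mouse, the median difference of retained-intron RNAs from the Ctrl mean was -0.09, -0.001, -0.004 and -0.025 in NLH 1 to 4 and -0.091, -0.046, -0.157 and -0.137 in LH 1 to 4. The Ctrl mice lay between -0.005 and 0.018, so NLH 2 and NLH 3 were inside the Ctrl range and the other 6 shocked mice below it. That range is kept narrow because these are differences from the mean of the same Ctrl mice. HC 3, at -0.016, also lay below it, and HC 1, HC 2 and HC 4 were inside it, at 0.014, 0.007 and 0.004. Protein-coding RNAs spread more widely, from -0.32 in LH 4 to 0.32 in LH 2. The retained-intron median minus the protein-coding one ran from -0.035 to 0.094 in Ctrl. It was below that range in 6 shocked mice (-0.37 to -0.119), inside it in NLH 4 (-0.012) and above it in LH 4 (0.187). The HC mice were inside it, from -0.02 to 0.079.

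**Figure D3:**
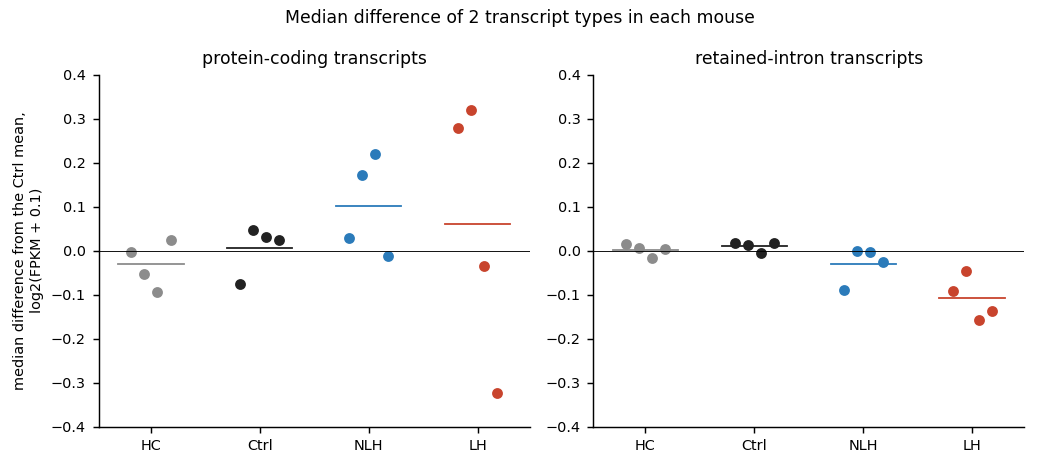
Median difference from the Ctrl mean in log2(FPKM + 0.1) over protein-coding RNAs (left) and retained-intron RNAs (right) with a mean of at least 1 FPKM, 1 point per mouse and the group mean as a line. Retained-intron medians of 6 of the 8 shocked mice and of HC 3 (-0.016) lie below the Ctrl range (-0.005 to 0.018). Protein-coding medians run from -0.324 to 0.319 in LH.

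When FPKM was summed over the transcripts of each of 18287 gene names, 2 genes were shared by both shocked groups, or 0.0109%, and both were higher. Dnal1 totals were 6.57, 9.05, 7.43 and 8.52 FPKM in Ctrl, 17.7, 13.4, 17.2 and 11.9 in NLH and 18.1, 13.8, 17.1 and 14.3 in LH. The Ctrl and shocked mice did not overlap, and HC lay between them, at 8.67 to 10.7, with 3 of 4 above all Ctrl mice. The difference was 0.95 ± 0.12 (limma adjusted p = 0.0170), and LH minus NLH had a 95% interval from -0.22 to 0.39. Naca totals were 17.6, 17.9, 17.5 and 18.9 FPKM in Ctrl, 25.9, 29.1, 27.2 and 23.2 in NLH and 29.7, 25.3, 26.5 and 23.9 in LH, with HC at 17.1 to 19.1. All shocked mice exceeded all Ctrl and HC mice, by 0.54 ± 0.08 against Ctrl (limma adjusted p = 0.0410). Neither gene passed in the fit with mice of the same number as a block, nor in the fit of the 12 mice alone, where no gene did.

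The promoters of these 2 genes are printed because they are the genes whose totals passed the test. The windows of 300 bases lie around the gene start that RefSeq gives (GRCm38.p6), and capitals mark a match to CCAAT, read on the other strand as ATTGG, or to TGACG, the core of the cyclic AMP response element. The Dnal1 window is chr12:84114078-84114377 and the Naca window chr10:128035096-128035395, both on the plus strand. The Naca window ends upstream of the GENCODE start of Naca-201 at 128035575.
Dnal1: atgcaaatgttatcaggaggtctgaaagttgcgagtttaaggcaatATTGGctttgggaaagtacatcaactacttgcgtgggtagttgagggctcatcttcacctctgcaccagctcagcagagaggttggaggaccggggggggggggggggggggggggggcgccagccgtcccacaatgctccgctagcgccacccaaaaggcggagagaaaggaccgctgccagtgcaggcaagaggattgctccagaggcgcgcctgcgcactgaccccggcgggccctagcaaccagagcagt
Naca: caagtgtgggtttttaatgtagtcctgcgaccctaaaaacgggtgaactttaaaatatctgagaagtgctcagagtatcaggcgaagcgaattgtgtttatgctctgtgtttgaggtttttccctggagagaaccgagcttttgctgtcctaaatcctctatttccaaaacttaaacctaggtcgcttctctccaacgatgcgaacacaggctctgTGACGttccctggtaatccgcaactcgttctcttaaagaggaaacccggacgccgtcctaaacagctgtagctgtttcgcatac
The letters CCAAT occur on either strand in 37.4% of the 32851 promoters of that table and TGACG in 20.8%, or in 37.1% and 31.1% of those of genes with a mean of at least 1 FPKM here. Searches on both strands for the full element TGACGTCA, for GAANNTTC (of the heat shock element), for AGAACA (part of a glucocorticoid receptor site) and for the E-box CACGTG found none in either window.

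The next 4 gene totals by p did not pass the adjusted threshold. In each all 8 shocked mice lay above all 4 Ctrl mice, which restates their choice by p in the same mice and is no further support. Rbm28, of a nucleolar RNA-binding protein, was at 0.233 to 0.733 FPKM in Ctrl and 0.981 to 2.04 in shocked mice (1.37 ± 0.22, limma adjusted p = 0.0620). Nap1l1, of a nucleosome assembly protein, was at 11.95 to 14.65 and 14.67 to 25.98 (0.67 ± 0.11, limma adjusted p = 0.0620). Tpt1 was at 86.3 to 95.7 and 110 to 154 (0.53 ± 0.09, limma adjusted p = 0.0755), and R3hdm1, host gene of a miR-128 copy, at 7.33 to 8.04 and 10.7 to 19.97 (0.86 ± 0.15, limma adjusted p = 0.0899).

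**Figure D4:**
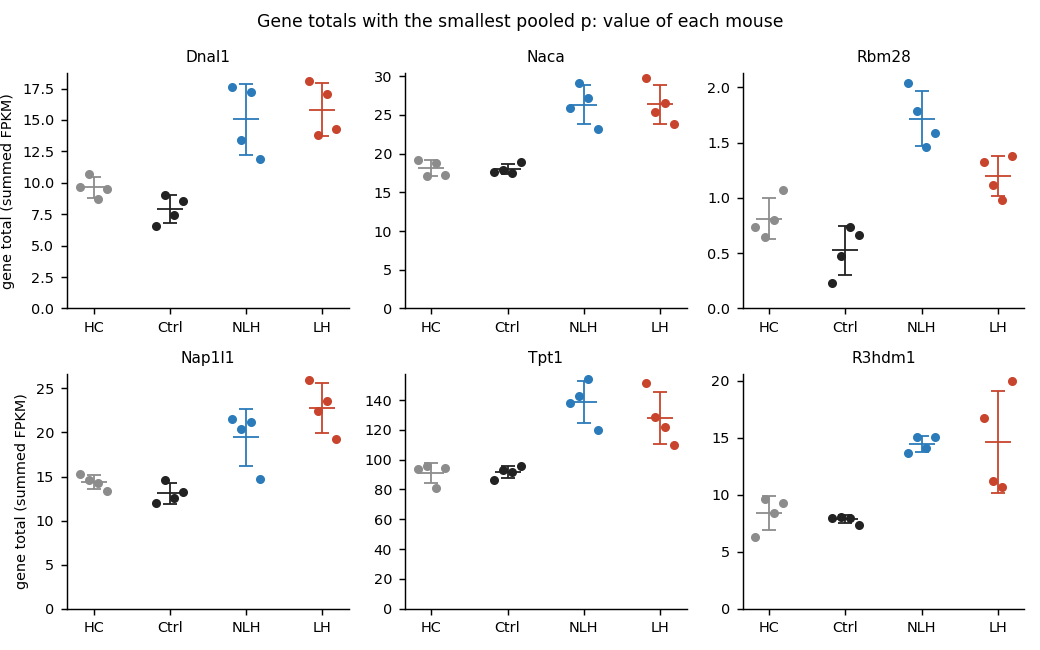
Summed FPKM of the 6 gene names with the smallest pooled p in each mouse (1 point per mouse) of the HC, Ctrl, NLH and LH groups, with the group mean as a line and 1 SD as the bar. All 8 shocked mice lie above all 4 Ctrl mice in the 6 panels, which restates the choice of these genes by p in the same mice. Dnal1 and Naca passed the adjusted threshold.

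Over all gene totals, 6.57% were higher with an unadjusted p under 0.05 and 2.25% were lower, and all 8 shocked mice lay above all Ctrl mice for 0.908% and below them for 0.164%. This excess of higher totals depended on the scaling between libraries. Of the 1613 unadjusted calls 74.5% were higher on FPKM as deposited, and 48% of 2090 were after median-ratio size factors. Likewise the 166 genes fully above and 30 fully below became 150 and 134.

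Gene lists for functions known in the stressed hippocampus are described by counts of measured members at an unadjusted p under 0.05. They stand beside the 6.57% and 2.25% of all genes and the median of 0.03 over all genes. Not every listed gene was measured: 19 of 21 heat shock and chaperone genes were, and 16 of 21 immediate early genes. Of the 10457 gene names with a mean of at least 1 FPKM, 10.2% were higher and 1.55% lower, with a median of 0.05. No member of any list passed the adjusted threshold at the level of gene totals. Among 19 heat shock proteins and chaperones, which fold and protect proteins, 8 were higher and none lower, with a median difference of 0.16. It was 0.335 without LH 3 and LH 4, where the median over all genes was 0.13, and 0.105 with size factors, where that median was -0.02. Hspa4 totals were 16.7, 18.5, 18.1 and 18.6 FPKM in Ctrl, 22.2, 21.6, 23.2 and 19.9 in NLH and 27.0, 24.8, 19.7 and 29.6 in LH, and Hsph1 totals 15.3 to 17.98 in Ctrl and 18.4 to 30.1 in shocked mice. For both genes the groups did not overlap and HC was no higher than Ctrl. Hspd1, Dnaja1, Hsp90aa1, Hspa9, Hsp90b1 and Dnajb4 were the others, with differences from 0.24 (Hspa9) to 0.56 (Hspd1).

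Of 35 splicing factors, 9 were higher and 1 lower, with a median of 0.115, which was 0.06 with size factors and 0.19 without LH 4. Elavl4, a neuronal RNA-binding protein that stabilizes mRNAs, was at 6.09, 6.65, 6.49 and 5.65 FPKM in Ctrl, at 10.3, 8.27, 7.33 and 7.82 in NLH and at 12.5, 9.33, 12.2 and 9.72 in LH. The 8 shocked mice lay above all Ctrl and all HC mice (0.61 ± 0.11, limma adjusted p = 0.0899). Khdrbs3, which regulates alternative splicing in neurons, was at 17.4 to 18.5 in Ctrl and 20.3 to 29.1 in shocked mice. The lower one was Hnrnpc (-1.30 ± 0.58). Of 51 chromatin regulators 9 were higher and none lower (median 0.09, at 0.03 with size factors and 0.05 without LH 1), with the remodeller gene Smarca2 at 28.7 to 33.7 and 31.9 to 46.0 FPKM and the corepressor gene Ncor1 at 24.1 to 32.7 and 27.2 to 47.4, ranges that overlapped in both.

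Of 50 cytosolic ribosomal protein genes, 10 were higher and none lower, with a median of 0.08. The median was 0.01 in LH and 0.20 in NLH, a difference that was not tested, and it was 0.03 with size factors and 0.25 without LH 3 and LH 4. Leaving out 1 mouse gave 0.03 (LH 2) to 0.17 (LH 4), with 0.05 without Ctrl 1 and 0.14 without Ctrl 4. Rpl23 was at 11.2 to 14.7 FPKM in Ctrl and 14.8 to 20.4 in shocked mice, without overlap and with 3 of 4 HC mice above all Ctrl mice, and Rps23 at 12.8 to 18.1 and 16.6 to 28.4. Of 39 respiratory chain genes, 7 were higher and none lower. Their median of 0.11 was 0.05 with size factors, 0.24 without LH 3 and LH 4, 0.05 without Ctrl 1, 0.07 without LH 1 and 0.16 without LH 4. The list was led by the complex III subunit Uqcrb (30.8 to 50.6 and 45.6 to 62.0 FPKM) and the complex I subunit Ndufb10 (9.59 to 10.6 and 11.4 to 16.1). Of 27 lysosomal genes 3 were higher and none lower, and these were Asah1, the protease gene Ctsl and the thioesterase gene Ppt1.

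Synaptic lists were counted in the same way. The median was 0.047 for transmitter release and 0.057 for postsynaptic scaffolds, beside 0.051 for all gene names with a mean of at least 1 FPKM. With size factors they were -0.009 and 0.001, where the median over all genes was -0.02. Of 24 genes of transmitter release 4 were higher, with Sv2b, a synaptic vesicle protein, at 38.0 to 50.1 FPKM in Ctrl and 45.5 to 60.5 in shocked mice and the active zone gene Erc2 at 13.2 to 19.5 and 13.2 to 27.1. Of 25 postsynaptic scaffold genes 2 were higher, Dlg2 (34.4 to 39.2 and 38.0 to 54.1) and Homer1 (20.1 to 22.3 and 20.2 to 30.4). Of 21 glutamate receptor genes 1 was higher and 1 lower, both presynaptic metabotropic receptors. Grm8 was at 2.07 to 3.10 FPKM in Ctrl and 3.20 to 4.49 in shocked mice, without overlap, and Grm2 at 3.78 to 5.58 and 1.60 to 4.59, with overlap and with all HC mice, at 2.94 to 3.77, below all Ctrl mice. None of 21 inhibitory synapse genes and none of 18 neuropeptide and neurotrophin genes was at p under 0.05. Gad2, of GABA synthesis, differed by 0.22 ± 0.11, the total of Slc12a5 by 0.15 ± 0.08, Scg2 by 0.17 ± 0.09 and Sst by 0.22 ± 0.17. Leaving out 1 mouse gave 0.09 to 0.29 for Sst.

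**Figure D5:**
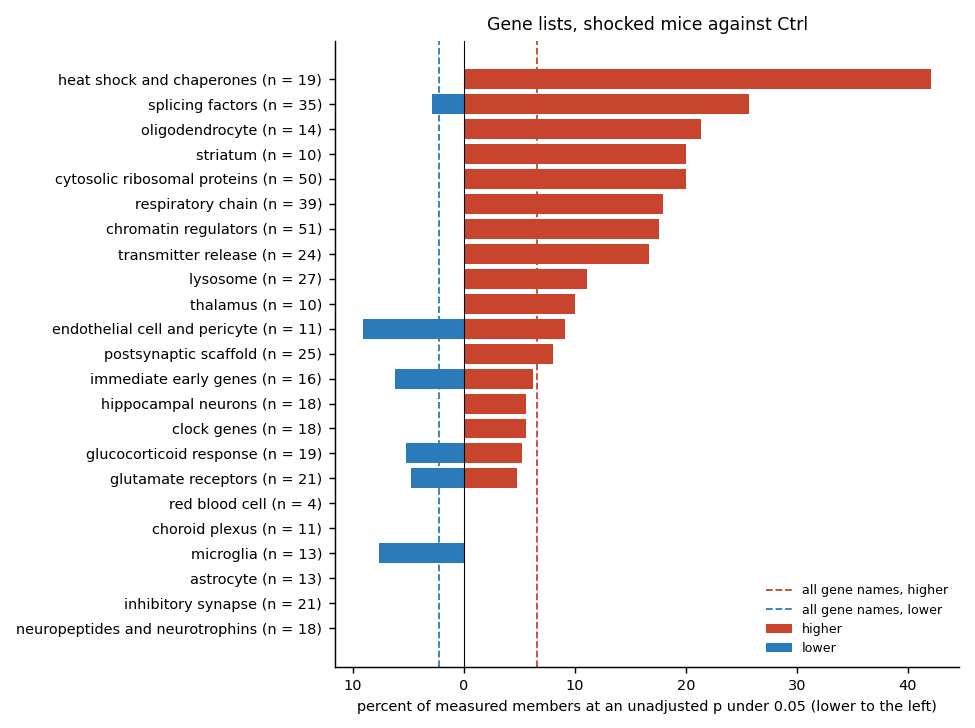
Percent of the measured members of each of 23 gene lists whose total was higher (red, right) or lower (blue, left) in shocked mice than in Ctrl at an unadjusted p under 0.05, with dashed lines for all gene names (6.57% higher, 2.25% lower). Heat shock and chaperone genes reach 42.1% and splicing factors 25.7%, and no member passed the adjusted threshold.

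Of the 16 measured immediate early genes, from 21 listed, 1 was higher (Homer1) and 1 lower (Junb), shares of 6.25% each. Junb was at 0, 0, 0.142 and 0.133 FPKM in Ctrl and listed at 0 in all shocked and all HC mice. The measured Junb RNA is the one with 2 exons, and the Junb RNA with 1 exon was not analysed here. Only 14 of the transcripts matched in GENCODE have 1 exon, so RNAs with 1 exon are nearly absent from these lists. Fos was at 0.915 to 1.73 in Ctrl and 0.556 to 2.59 in shocked mice, Arc at 9.28 to 13.9 and 7.10 to 12.3, Egr1 at 5.99 to 8.15 and 6.11 to 9.30 and Npas4 at 0.459 to 0.565 and 0.401 to 0.708. Their differences were 0.18 ± 0.34, -0.08 ± 0.15, 0.16 ± 0.12 and 0.16 ± 0.20, none past the test, and in all 4 the groups overlapped. Two-sided exact permutation p values were 0.457, 0.618, 0.251 and 0.275. Leaving out 1 mouse gave differences of 0.04 to 0.38 for Fos, -0.14 to 0.06 for Arc, 0.11 to 0.26 for Egr1 and 0.10 to 0.22 for Npas4.

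Of 19 genes of the glucocorticoid response, 1 was higher (Pdk4, a mitochondrial kinase, 0.42 ± 0.19) and 1 lower (Nfkbia, an inhibitor of NF-kappaB, -0.49 ± 0.19), or 5.26% each. Fkbp5, a cochaperone that dampens the glucocorticoid receptor, ranged from 1.43 to 5.68 FPKM in Ctrl and from 0.954 to 6.91 in shocked mice, and Sgk1, a kinase, was at 45.5 in Ctrl 2 and 14.97 to 18.96 in the other Ctrl mice against 9.49 to 22.9 in shocked mice. The exact p values were 0.440 and 0.263. The receptors Nr3c1 and Nr3c2 differed by 0.23 ± 0.13 and 0.05 ± 0.18 (exact p = 0.174 and 0.796), the neurotrophin gene Bdnf by 0.06 ± 0.11 and the peptide gene Crh by 0.30 ± 0.32 (exact p = 0.517 and 0.444). Of 18 clock genes 1 was higher, Nr1d1, a repressor of the core loop, at 2.95 to 3.72 FPKM in Ctrl, 3.00 to 6.91 in shocked mice and 3.86 to 4.86 in HC. Arntl, its target, was at 2.73 to 3.17 and 2.95 to 3.94.

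Markers of other cells and of neighboring tissue were counted the same way. Of 14 oligodendrocyte genes 3 were higher (Ermn, Mobp and Aspa), of 13 microglial genes 1 was lower (Tmem119, -0.45 ± 0.18, with all HC mice also below all Ctrl mice, and Trem2 at -0.38 ± 0.19), and of 13 astrocyte genes none was at p under 0.05, with Sox9 at 0.34 ± 0.20 and Gfap at -0.20 ± 0.13. The summed oligodendrocyte list was at 377 to 495.1 FPKM in Ctrl, 455 to 570 in NLH and 305 to 592 in LH, the microglial list at 60.9 to 70.1, 56.1 to 73.2 and 47.2 to 74.5, and the astrocyte list at 592 to 684, 593 to 750 and 490 to 783, so that every sum overlapped between Ctrl and the shocked groups. Endothelial Flt1 was higher (0.77 ± 0.27) and Slc2a1 lower (-0.31 ± 0.15), of 11 genes measured (sums 43.1 to 50.3, 46.3 to 49.5 and 38.0 to 57.7). Leaving out 1 mouse gave 0.58 to 0.90 for Flt1 and -0.40 to -0.19 for Slc2a1. Of 10 striatal genes 5 had a positive and 5 a negative difference, with a median of 0.01. That median ran from -0.10 to 0.14 when 1 mouse was left out and was 0.20 without LH 3 and LH 4. In this list 2 genes were higher, among them Drd1, at 0.770 to 0.839 FPKM in Ctrl and 0.900 to 1.41 in shocked mice. The summed level of the list was 30.9 to 35.0 in Ctrl, 26.7 to 37.5 in NLH and 25.4 to 44.8 in LH. Of 10 thalamic genes Slc17a6 was higher (0.68 ± 0.22) and Tcf7l2 differed by 0.52 ± 0.28, with list sums of 12.4 to 16.4, 14.0 to 15.9 and 10.8 to 35.7. LH 1 stood apart, with Slc17a6 at 5.37 FPKM and Tcf7l2 at 3.59, against at most 3.55 and 1.62 in the other shocked mice, and without it the differences were 0.55 and 0.31. Of 18 hippocampal neuron genes 1 was higher (Neurod6, 0.23 ± 0.10), with Bcl11b at -0.33 ± 0.16. Of these 18 genes 13 had a negative difference, with a median of -0.11 and sums of 210 to 243, 202 to 237 and 194 to 285. The median was -0.18 without LH 2, -0.07 without Ctrl 3, -0.03 without LH 4 and 0.02 without both LH 3 and LH 4. No measured gene of these lists was at 0 in every mouse of the 12. Listed genes without a measured RNA are left out, as in the oligodendrocyte (14 of 16 measured) and endothelial (11 of 13 measured) lists. The part of tissue makeup in the results above was not tested.

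Choroid plexus and blood RNA varied widely between mice, and the groups overlapped. The sum of 11 choroid plexus genes was 71.6 to 173 FPKM in Ctrl, 22.8 to 215 in NLH and 14.1 to 334 in LH, with Aqp1 at -0.60 ± 0.83 and Prlr at -0.56 ± 0.92. The sum of 4 hemoglobin genes was 217 to 308, 215 to 333 and 144 to 459, with Hba-a2 at -0.61 ± 0.70 and Hbb-bt at 0.23 ± 0.30. No member of either list was at p under 0.05.

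None of the 4365 RNAs that the deposited table classes as long non-coding was among the 26 by limma, and 202, or 4.63%, had an unadjusted p under 0.05, beside the 3.24% higher and 3.96% lower of all transcripts. The 3 annotated ones with the smallest p and a mean of at least 1 FPKM did not pass the adjusted threshold. Meg3-206, an RNA of an imprinted maternally expressed gene, was at 1.52 to 2.19 FPKM in Ctrl, at 6.64, 6.82, 2.83 and 6.54 in NLH and at 7.09, 2.19, 3.15 and 5.94 in LH (1.31 ± 0.29, limma adjusted p = 0.187), and 7 of 8 shocked mice and all HC mice lay above Ctrl. The total of Meg3 was 106 to 136 in Ctrl and 97.4 to 148 in shocked mice. Gm21984-201 was at 1.65 to 3.81 and 3.41 to 9.25 (1.10 ± 0.26, limma adjusted p = 0.220), and 1700020I14Rik-202 at 35.6 to 39.1 and 38.9 to 54.5 (0.32 ± 0.08, limma adjusted p = 0.245).

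Summed FPKM was 124341 to 134285 in Ctrl. It lay above that range in LH 1, LH 2, NLH 2 and NLH 3 (143369 to 158004) and below it in LH 4 (120208), and its part in the results was not tested beyond the size factors. An estimate from FPKM steps put their depth at 28600000 to 38050000 fragments in Ctrl, 26950000 to 37400000 in NLH and 20200000 to 28100000 in LH. LH 3 and LH 4 had 10846 and 15504 transcripts listed at 0, against 4872 to 7352 in the other mice. Leaving both out kept the sign of all 26 shared transcripts and their unadjusted p under 0.05, which their choice in the same mice largely fixes. Without LH 3 and LH 4, 136 transcripts, 23 of the 26 among them, and 580 gene names passed the same rule, Naca and Dnal1 included. The median SD of a transcript within a group was 0.18 on the log2 scale in Ctrl, 0.25 in NLH and 0.43 in LH, while the fit uses 1 spread per transcript. No batch or date is given in the labels. The count and the transcripts called depended on single mice. Of the 16 transcripts shared without Ctrl 2 only 2 were among the 26, as were 8 of 17 without Ctrl 1, 7 of 19 without Ctrl 3 and 10 of 24 without Ctrl 4. Without a shocked mouse they were 1 of 2 (NLH 1), 2 of 3 (NLH 3), 2 of 3 (LH 3), 7 of 12 (NLH 2), 16 of 21 (LH 1), 23 of 44 (LH 4), 25 of 52 (NLH 4) and 26 of 64 (LH 2). Gene names numbered 84 without LH 4 and 17 without NLH 4, and neither Dnal1 nor Naca passed without Ctrl 1, Ctrl 3, Ctrl 4 or LH 3.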

How the data were processed

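RNA was measured by sequencing in 4 mice of each group. The authors deposited FPKM per transcript and mouse. By the study's methods reads were aligned to mm10 with HISAT2 (the submitters' processing notes name STAR 2.42a), and transcripts were assembled with StringTie 1.2.3 and quantified with Cufflinks. The filter behind the 80137 transcripts and the strand setting are not given in the sources used here. Of the Ensembl transcripts 99.42% matched GENCODE vM21, none on chromosomes X or Y, which were not analysed here.

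These FPKM were used without rescaling. A linear model in limma 3.58.1 (R 4.3.3) took log2(FPKM + 0.1) of the 16 mice as response and a mean for each of the 4 groups, with the trend and robust options, once by transcript and once for FPKM summed by gene name. Adjusted p-values are Benjamini-Hochberg values over every feature of the table. Exact permutation tests compared single values. Read counts were not used here, so no counting interval is given. Depth was estimated from FPKM steps on an assumed fragment length. The scripts were tested on simulated data. Python 3.11.15 drew the figures with matplotlib 3.10.9. By the study's methods mice were group-housed, and which mice shared a cage or litter is not given in the sources used here. The p-values measure the spread between these mice.

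The comparison and the gene lists were chosen with earlier results of these data known. Named were the 12 higher and up to 8 lower shared transcripts with a gene name, a mean of at least 1 FPKM and the smallest p, the 6 gene names with the smallest p, 3 long non-coding RNAs, 2 genes of each list and 10 fixed stress and activity genes. Others are marked as named after their values were seen, or stand in the lists they count. A shared transcript and a list gene are not reported here. Alternatives are given at the end.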

Additional observations from a re-analysis of the deposited data

Results flagged for a closer look

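In 96 groups of 4 mice, each of a named transcript or gene total, the highest or lowest mouse stood apart from the other 3 by Dixon's 95% criterion in 12, where chance gives about 1 in 20. Among the transcripts these were Suclg1-202 in LH 2 (1.51 FPKM, the one shocked mouse with a clear level) and in NLH 3 (0.00563), Set-203 in NLH 4 (10.6, still above all Ctrl mice), Fez1-208 in Ctrl 4 (0.462), Paics-202 in Ctrl 1 (0.675) and in LH 2 (0.813), and Meg3-206 in NLH 3 (2.83). Among the gene totals they were Nap1l1 in NLH 4 (14.67 FPKM), R3hdm1 in Ctrl 4 (7.33), Arc in Ctrl 4 (13.9), Sgk1 in Ctrl 2 (45.5) and Bdnf in Ctrl 2 (3.36).

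The pooled difference of 2 transcripts came from LH, with a difference between the shocked groups at a limma adjusted p of 0.00033 for Pdlim5-204 (LH minus NLH -3.07) and 0.0023 for Itsn1-209 (LH minus NLH -4.80).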

How the results depend on the processing

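The 26 shared transcripts kept their sign and an unadjusted p under 0.05 in each alternative limma fit (18 of 18 where only a mean of at least 1 FPKM was tested). They were chosen for a small p in the same mice, so this is largely fixed by the choice and is no further support. The count past the adjusted threshold and the transcripts past it did not stay. It was 13 with 1 added before the logarithm, 54 at a mean of at least 1 FPKM, 51 with size factors, 141 with array weights, 136 without LH 3 and LH 4, 721 by full separation of the 8 and 4 mice, 4991 by an unadjusted Student test on FPKM, 18 by the adjusted one, which 3 of the 26 passed, and 0 with mice of the same number as a replicate block. Mice with the same number did not deviate together (r from -0.0575 to 0.0874 over 12 pairs), so the numbers were not taken as pairing. Leaving out LH 3 and LH 4, and size factors from transcripts with a mean of at least 1, were chosen after seeing the data. Shared gene names (2) numbered 21 with size factors, 20 with size factors from a mean of at least 1, 0 in the fit of the 12 mice alone, 862 with array weights, 0 with the replicate block, 580 without LH 3 and LH 4, 196 by full separation, 1292 by the unadjusted Student test and 0 by the adjusted one. For the unadjusted Student counts, 5% of the tests is 4007 transcripts or 914 gene names. In the fit of the 12 mice alone 21 transcripts were shared, 9 of them among the 26. Leaving out 1 mouse gave 2 to 64 transcripts and 0 to 84 gene names, the latter without LH 4.

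Higher gene names at an unadjusted p under 0.05 (1201) numbered 3336 with array weights, 3466 without LH 3 and LH 4 and 701 to 2290 when 1 mouse was left out. Lower ones (412) numbered 161 at a mean of at least 1, 1087 with size factors, 1138 with size factors from a mean of at least 1 and 311 to 818 when 1 mouse was left out. Gene names with all shocked mice above Ctrl (166) numbered 174 to 402 when 1 mouse was left out, and those below (30) 34 to 88, and 134 with size factors. The number of shared transcripts and genes that differed between LH and NLH was 0 to 1.

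Among the named transcripts and genes, signs turned in 7 genes that did not pass the test. Nr3c2 was at -0.00504 with size factors, -0.0104 with size factors from a mean of at least 1, -0.0580 with array weights and -0.0596 without LH 3 and LH 4, and Bdnf at -0.00204 with size factors from a mean of at least 1. With array weights Hba-a2 was at 0.0738, Aqp1 at 0.0698 and Prlr at 0.302, and without LH 3 and LH 4 at 0.440, 0.182 and 0.518, with Arc at 0.0159. Leaving out 1 mouse gave -1.09 to 0.0194 for Prlr, -0.136 to 0.0572 for Arc, -0.0826 to 0.575 for Fkbp5, -0.0809 to 0.145 for Nr3c2 and -0.000544 to 0.101 for Bdnf. The median of the heat shock and chaperone list (0.16) was 0.335 without LH 3 and LH 4 and 0.105 with size factors. The medians of the choroid plexus, hippocampal neuron and microglia lists were 0.48, 0.02 and 0.05 without LH 3 and LH 4, and those of immediate early genes, glucocorticoid response, neuropeptides, transmitter release, red blood cells and striatum lay between -0.0538 and -0.00105 with size factors. The causes were not tested. No read counts were used here, so how depth limits low transcripts could only be estimated.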
